A study of Homo sapiens with 6 samples.

Results

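The 45 genes described here encode proteins that build the ribosome in the nucleolus, among them subunits and factors of RNA polymerase I. They are 45 of the 58735 genes in the deposited table and were taken by symbol, and each symbol matched exactly 1 row. The study measured RNA by sequencing in HaCaT, a spontaneously immortalised human keratinocyte line labelled wild type. One group was treated for 48 h from 70% confluence with dacomitinib, a kinase inhibitor that binds EGFR and its relatives irreversibly (3 libraries). The other is labelled control (3 libraries) and is also listed at 70% confluence, with no time listed. The series' design text attaches 0.1% DMSO to the experimental group, and neither the dose nor the vehicle of the controls is given in the sources used here. The comparison asks how RNA levels of cell pathways differ between treated and control cells. All libraries are of 1 line, and the labels do not say whether each came from its own culture. The p-values therefore reflect only how far these libraries spread, which may be technical. The 3 treated columns carry a letter that stands in no label and were assigned by elimination, so the direction of every difference rests on that assignment.

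Ribosome assembly starts when RNA polymerase I transcribes the long precursor of the ribosomal RNAs. The precursor is modified by small nucleolar ribonucleoproteins (snoRNPs), folded and cut by the small subunit processome and by large subunit assembly factors, and joined to ribosomal proteins on the way to the cytoplasm. Growth factor signalling through ERK and the transcription factor MYC are known to raise transcription of ribosomal RNA and of many assembly genes in growing cells. MYC binds best to the sequence CACGTG, called an E-box.

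Of the 45 genes, 43 had a mean of at least 1 FPKM (fragments per kilobase of gene length, scaled by library size) over the 6 libraries and were tested. Of these, 42 fell with dacomitinib and 0 rose, where 34.8% of all 13748 tested genes fell and 25.4% rose, 60.2% in all (limma on log2(FPKM + 1), Benjamini-Hochberg adjusted p of at most 0.05). The 43 averaged between 32.2% and 87.5% of their control FPKM, with a median of 52.4%, against a median of 95.5% over all tested genes. The median difference in log2(FPKM + 1), dacomitinib minus control, was -0.81 for the 43 and -0.06 for all tested genes. The 43 were more highly expressed, with a median control mean of 16.8 FPKM, against 6.11 FPKM for all tested genes. Among the 7681 genes with a mean of at least 5 FPKM, 47.3% fell and the median difference was -0.15. For the 40 of the 43 that reached this level the median was -0.92. In 19 of the 43 the mean FPKM was at most 50% of control, a level that 10% of all tested genes reached. All 3 dacomitinib libraries lay below all 3 control libraries in 42 of the 43, as in 38.2% of all tested genes. In bulk RNA, fewer cells of a type and less RNA per cell cannot be told apart.

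The libraries held 15171200 to 16179273 fragments on genes with dacomitinib and 14960650 to 16166582 in control. Over 3 libraries a tested gene of the 43 had between 365 and 51197 fragments. Mitochondrial genes took 4.61 to 4.90% of fragments with dacomitinib and 7.38 to 8.08% in control, and their part in the results was not tested. All 12 keratinocyte markers checked were expressed above the limit, and 6 fell and 4 rose with dacomitinib. KRT14 stood at 54.7% of control, KRT6A at 53.2% and KRT17 at 192%. The summed level of the 12 was 1149 to 1350.0 FPKM with dacomitinib and 1479 to 1546 FPKM in control. Of 19 markers of fibroblasts, endothelium, melanocytes and immune cells, 3 were tested (CDH5, COL3A1 and CD74) and all 3 were higher with dacomitinib. The summed level of all 19 was 17.3 to 22.4 FPKM with dacomitinib and 5.09 to 6.14 FPKM in control, COL1A2, PDGFRA, KDR and TYR had no fragment, and VIM had 0 fragments with dacomitinib and 3 in control. The part of these markers in the results was not tested.

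The scaling between libraries shifts all genes together and so bears on how many fell. The deposited FPKM divide by a library size that was 1.07 ± 0.0244 times the library's own fragment sum with dacomitinib and 0.952 ± 0.00449 times in control (SD, n = 3 each). Rescaled to TPM, which gives every library the same sum, the median of all tested genes was 0.23 and that of the 43 was -0.59. Relative to all tested genes the 43 thus stood at -0.76 with the deposited scaling and at -0.82 with TPM. With TPM, 36 of the 43 fell and 0 rose, against 19.8% of all tested genes falling and 42% rising. With limma-voom on the fragments recovered from the FPKM, 41 of the 43 fell, against 32.1% of all tested genes.

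**Figure D1:**
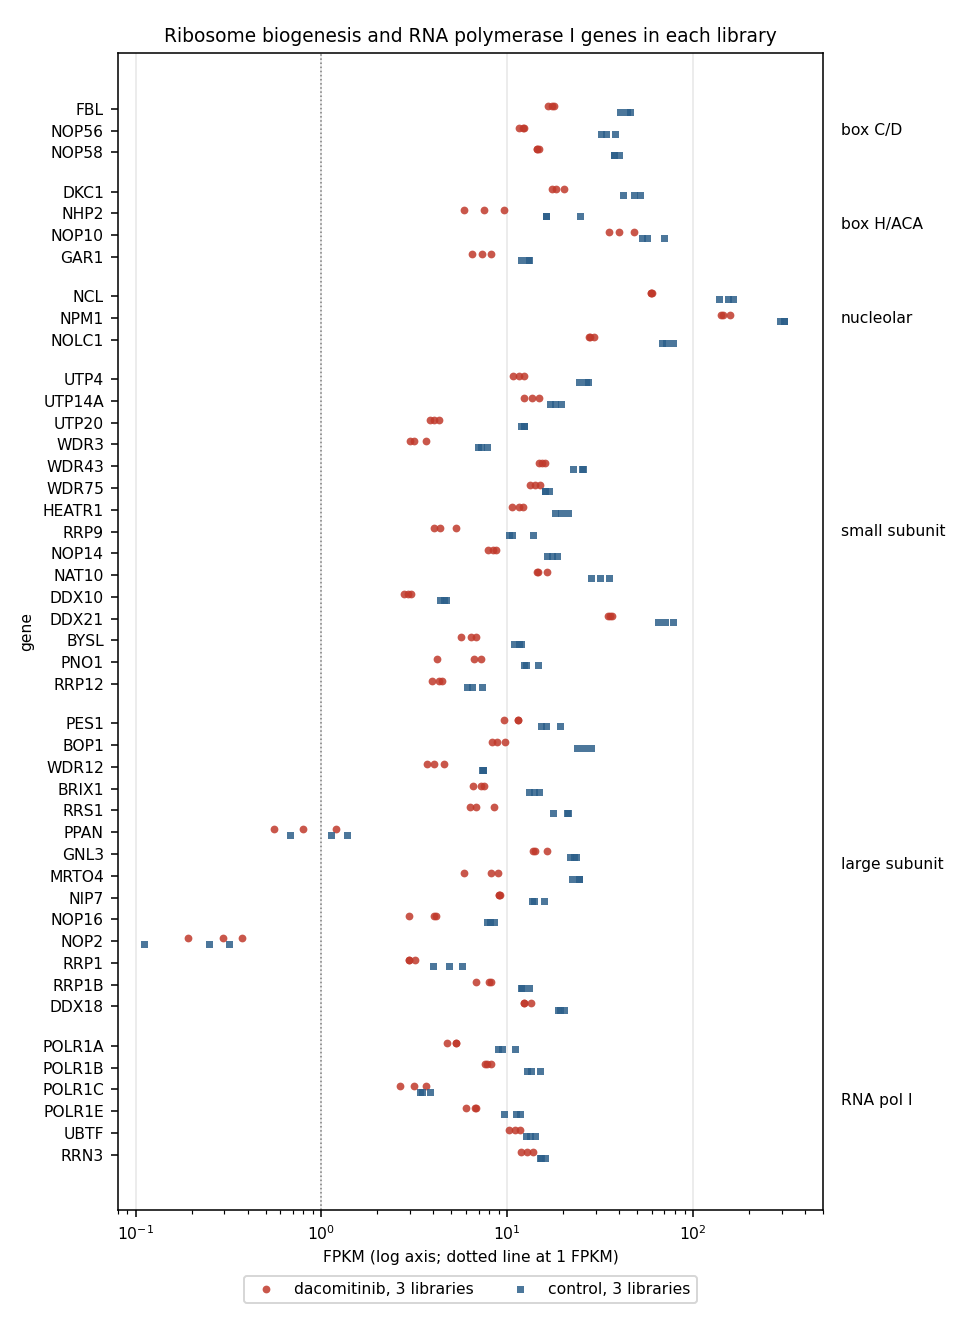
FPKM (log axis) of each of the 45 genes in 3 dacomitinib libraries (circles, upper) and 3 control libraries (squares, lower), grouped by role. The circles lie left of the squares in 42 of the 43 tested genes; PPAN and NOP2 lie near or below the dotted line at 1 FPKM.

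The genes lie on 19 chromosomes, so they share no single locus. Their promoters were compared because the genes moved together. RefSeq (GRCh38.p14) lists the 250 bases before and 50 bases after a transcription start for 37 of the 45, and 17 of these 37 (45.9%) hold the E-box letters CACGTG, which read the same on both strands. The same letters stand in 12.8% of 8811 tested genes with such a promoter, in 8.77% of 27305 genes with one, and in 26.3% of 114 other ribosome assembly genes. In 16 of the 17 genes an E-box lies within 40 bases of a start. The letters CCGGAAG or their reverse complement CTTCCGG, a core of ETS factor sites, stand in 37.8% of the 37, in 41.2% of the 114 and in 23.7% of the tested genes. The median log2 difference was -0.98 over 16 tested genes with CACGTG and -0.73 over 19 without, a description with no test. The sets differ in role, as no RNA polymerase I gene is among those with CACGTG. Genes with no listed promoter enter neither set: BOP1, RRS1, NOP58 and NOLC1 (-1.44 to -1.33) and DDX18, POLR1E, RRP12 and RRP1B (-0.65 to -0.54). A match says only that the letters are there.

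The promoters below belong to the 4 genes with an E-box and the largest falls, and to NOP56, which had the largest fall among those without one. Each is written 5′ to 3′ on the gene's strand, and capitals mark CACGTG.
MRTO4, chr1:19251555-19251854, plus strand: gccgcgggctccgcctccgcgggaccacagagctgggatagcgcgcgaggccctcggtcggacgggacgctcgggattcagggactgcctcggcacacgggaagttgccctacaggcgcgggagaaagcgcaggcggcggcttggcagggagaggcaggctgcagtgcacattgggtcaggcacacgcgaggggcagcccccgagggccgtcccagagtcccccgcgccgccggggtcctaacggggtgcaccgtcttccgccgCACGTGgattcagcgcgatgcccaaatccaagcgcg
UTP20, chr12:101279855-101280154, plus strand: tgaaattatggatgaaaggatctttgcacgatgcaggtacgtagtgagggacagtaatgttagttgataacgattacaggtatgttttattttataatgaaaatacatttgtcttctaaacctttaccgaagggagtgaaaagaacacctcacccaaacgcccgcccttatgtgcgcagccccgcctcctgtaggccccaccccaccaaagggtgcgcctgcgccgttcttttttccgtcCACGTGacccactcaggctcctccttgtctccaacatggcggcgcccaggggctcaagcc
FBL, chr19:39846330-39846629, minus strand: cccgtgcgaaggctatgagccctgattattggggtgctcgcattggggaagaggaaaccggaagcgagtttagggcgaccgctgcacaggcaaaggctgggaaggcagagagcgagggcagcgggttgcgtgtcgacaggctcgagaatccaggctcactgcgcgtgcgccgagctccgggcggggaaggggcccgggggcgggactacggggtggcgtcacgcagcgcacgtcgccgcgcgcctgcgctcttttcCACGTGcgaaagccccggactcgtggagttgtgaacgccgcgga
RRP9, chr3:51941855-51942154, minus strand: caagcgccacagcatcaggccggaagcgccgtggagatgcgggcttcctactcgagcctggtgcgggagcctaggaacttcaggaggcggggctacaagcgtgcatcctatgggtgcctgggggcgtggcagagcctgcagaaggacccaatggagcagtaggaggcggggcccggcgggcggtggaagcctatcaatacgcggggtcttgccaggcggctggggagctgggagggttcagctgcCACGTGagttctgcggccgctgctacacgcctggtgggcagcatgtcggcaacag
NOP56, chr20:2652382-2652681, plus strand: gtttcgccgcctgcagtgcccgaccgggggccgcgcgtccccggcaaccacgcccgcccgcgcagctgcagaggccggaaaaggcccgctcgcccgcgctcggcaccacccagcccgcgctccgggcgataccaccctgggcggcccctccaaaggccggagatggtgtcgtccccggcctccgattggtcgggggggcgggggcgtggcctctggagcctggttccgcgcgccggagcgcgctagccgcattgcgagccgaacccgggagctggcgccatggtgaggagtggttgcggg

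The E-box follows the start in MRTO4 and FBL and begins before it in UTP20 and RRP9. The levels of these genes are given by role.

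Box C/D snoRNPs guide ribose methylation of ribosomal RNA. All 3 genes listed for their core proteins fell, to between 34.6% and 39.8% of control, where 34.8% of all tested genes fell. FBL (fibrillarin, the methyltransferase; ENSG00000105202, chromosome 19, 39834458 to 39846414, GRCh38) had 17.8, 16.6 and 17.4 FPKM with dacomitinib and 43.8, 40.5 and 45.5 FPKM in control. Its log2 difference was -1.28 (SE 0.056, adjusted p = 6.35e-06). NOP56, a scaffold of the particle (ENSG00000101361, chromosome 20, 2652145 to 2658393), had 12.3, 11.6 and 12.1 FPKM with dacomitinib and 34.1, 32.0 and 38.0 FPKM in control. That is a log2 difference of -1.45 (SE 0.069, adjusted p = 8.45e-06). NOP58, the paired scaffold, had 14.8, 14.4 and 14.5 FPKM with dacomitinib, against 37.4, 37.6 and 39.9 FPKM in control. It fell by 1.34 on the log2 scale (SE 0.043, adjusted p = 2.07e-06). No library of one group reached the range of the other in any of the 3 genes. In 38.2% of all tested genes all 3 dacomitinib libraries lay below all 3 control libraries. The ratio of NOP56 to FBL within a library was 0.696 ± 0.00189 with dacomitinib and 0.801 ± 0.0295 in control (SD, n = 3 each; exact permutation test, two-sided, p = 0.1, the smallest that 3 against 3 libraries allow). It is 1 of 14 ratios computed, of which 10 gave this p (0.14 after Benjamini-Hochberg adjustment over the 14 exact tests), and the pairs were chosen after values were seen.

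Box H/ACA snoRNPs guide the conversion of uridine to pseudouridine. Their 4 core genes all fell, by unequal amounts, where 34.8% of all tested genes fell. DKC1 (dyskerin, the pseudouridine synthase; ENSG00000130826, X chromosome, 154762742 to 154777689) had 18.4, 17.3 and 20.2 FPKM with dacomitinib and 47.8, 41.7 and 51.5 FPKM in control, a log2 difference of -1.29 (SE 0.090, adjusted p = 4.31e-05). NHP2, an RNA-binding partner, had 5.82, 7.47 and 9.59 FPKM with dacomitinib and 16.1, 16.2 and 24.6 FPKM in control. Relative to their means its libraries were the widest spread of the 4, and its log2 difference was -1.21 (SE 0.21, adjusted p = 0.00248). GAR1, which joins the mature particle, averaged 7.29 ± 0.875 FPKM with dacomitinib and 12.6 ± 0.664 FPKM in control (SD, n = 3 each), a log2 difference of -0.72 (SE 0.086, adjusted p = 0.000445). NOP10, the smallest core protein, had 48.1, 35.04 and 39.7 FPKM with dacomitinib, against 56.5, 70.0 and 53.3 FPKM in control. It fell by 0.54 on the log2 scale (SE 0.14, adjusted p = 0.0144), a call that ended with TPM (adjusted p = 0.130) and quantile normalization (adjusted p = 0.0987). Within libraries the ratio of NOP10 to DKC1 was 2.20 ± 0.363 with dacomitinib and 1.30 ± 0.337 in control (SD, n = 3 each), and the groups did not overlap. The ratio of NHP2 to DKC1 overlapped, at 0.408 ± 0.0814 with dacomitinib and 0.402 ± 0.0710 in control.

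The 3 abundant nucleolar phosphoproteins all fell, where 34.8% of all tested genes did. NPM1 and NCL had the highest mean FPKM of the 45 genes in both groups. NPM1 (nucleophosmin, a chaperone of nucleolar assembly; ENSG00000181163, chromosome 5, 171387116 to 171411137) had 159, 140.2 and 145 FPKM with dacomitinib and 306, 294 and 306 FPKM in control. Its log2 difference was -1.03 (SE 0.058, adjusted p = 1.79e-05). NCL (nucleolin, which binds ribosomal RNA precursors; ENSG00000115053, chromosome 2, 231453531 to 231483641) had 59.9, 58.9 and 58.9 FPKM with dacomitinib and 153, 137 and 163 FPKM in control, a log2 difference of -1.33 (SE 0.067, adjusted p = 1.14e-05). NOLC1, a chaperone of snoRNPs, had 29.3, 27.4 and 27.9 FPKM with dacomitinib, against 71.7, 67.8 and 78.1 FPKM in control, and fell by 1.33 (SE 0.061, adjusted p = 7.21e-06). The groups did not overlap in any of these 3 genes, and 38.2% of all tested genes likewise had every dacomitinib library below every control library. NPM1 has 45 pseudogenes by name in the table, and near-identical copies can divide reads. They held fragments equal to 1.82% of those on NPM1 with dacomitinib and to 1.53% in control. These shares count only fragments assigned to a gene, so they cannot show how many reads were left unassigned.

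**Figure D2:**
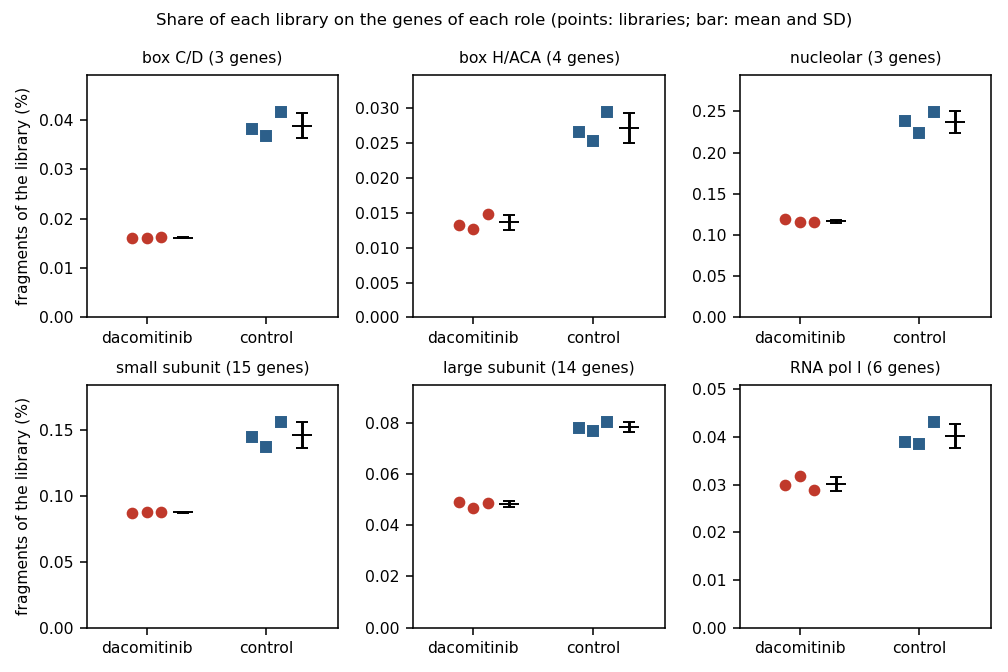
Fragments on the genes of each role as a percentage of all gene fragments in the library, for 3 dacomitinib libraries (circles, left) and 3 control libraries (squares, right), with mean and SD. The groups do not overlap in any of the 6 panels. The shares do not use the deposited library sizes, but each depends on the other genes of its library.

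As a share of all gene fragments in a library, the 45 genes took 0.312 ± 0.00193% with dacomitinib and 0.568 ± 0.0313% in control (SD, n = 3 each). Such a share does not use the deposited library sizes, but it depends on the level of every other gene in the library. The plot of fragment shares by role shows the same order of groups in each role, and the closest pair of groups was in RNA polymerase I, at 0.0302 ± 0.00145% with dacomitinib and 0.0402 ± 0.00261% in control.

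The small subunit processome and later small subunit factors made up the largest role. All 15 genes fell, to between 33.4% and 86.5% of control, where 34.8% of all tested genes fell. UTP20 (a large scaffold protein of precursor processing; ENSG00000120800, chromosome 12, 101280109 to 101386616) fell most. It had 4.31, 4.01 and 3.85 FPKM with dacomitinib and 12.3, 11.8 and 12.3 FPKM in control, a log2 difference of -1.38 (SE 0.055, adjusted p = 4.45e-06). RRP9, which binds the U3 snoRNA, had 5.30, 4.05 and 4.33 FPKM with dacomitinib and 10.2, 10.6 and 13.7 FPKM in control, a log2 difference of -1.17 (SE 0.13, adjusted p = 0.000309). DDX21, a helicase that links ribosomal RNA transcription and processing, was the most abundant. It had 34.7, 35.8 and 36.5 FPKM with dacomitinib, against 70.8, 64.8 and 78.1 FPKM in control (log2 difference -0.97, SE 0.071, adjusted p = 4.94e-05).

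At the other end of this role stood WDR75, a protein of the early UTP-A subcomplex. It had 14.9, 14.0 and 13.2 FPKM with dacomitinib and 16.0, 16.8 and 15.9 FPKM in control, so the groups were close without overlapping. Its log2 difference was -0.20 (SE 0.056, adjusted p = 0.0206). The call ended when dacomitinib replicate 2 or 3 was left out (adjusted p of 0.0522 and 0.0654) and likewise without control replicate 1 or 2 (adjusted p of 0.0506 and 0.0657). With TPM the difference was 0.11 (adjusted p = 0.146), and the call also ended with quantile normalization (adjusted p = 0.910) and with a scaling to nuclear protein-coding genes (adjusted p = 0.663). UTP4 and HEATR1 belong to the same subcomplex. UTP4 averaged 11.6 ± 0.796 FPKM with dacomitinib and 25.9 ± 1.599 FPKM in control (log2 difference -1.10, SE 0.068, adjusted p = 2.47e-05), and HEATR1 11.4 ± 0.738 FPKM with dacomitinib and 19.6 ± 1.49 FPKM in control (log2 difference -0.73, SE 0.072, adjusted p = 0.000186). The ratio of WDR75 to UTP4 within libraries was 1.22 ± 0.0793 with dacomitinib and 0.629 ± 0.0585 in control (SD, n = 3 each), and the ranges did not overlap. UTP4 fell further than HEATR1, and the pair for this ratio was chosen after values were seen.

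The remaining small subunit genes fell by 0.40 (UTP14A, adjusted p = 0.00393) to 1.04 (PNO1, adjusted p = 0.00199) on the log2 scale. UTP14A, the other gene of this role whose call ended with TPM (adjusted p = 0.303) and with quantile normalization (adjusted p = 0.0820), averaged 13.6 ± 1.21 FPKM with dacomitinib and 18.2 ± 1.15 FPKM in control (SD, n = 3 each). NAT10, an RNA acetyltransferase, averaged 15.1 ± 1.05 FPKM with dacomitinib and 31.5 ± 3.49 FPKM in control, and fell by 1.01 (adjusted p = 0.000113). WDR3, WDR43, NOP14, DDX10, BYSL and RRP12 lay between, at 44.5% to 64.3% of control. PNO1, which remains on the small subunit until late maturation, had 7.18, 4.19 and 6.58 FPKM with dacomitinib and 12.6, 12.2 and 14.5 FPKM in control. Its treated libraries were more spread than those of most genes, and its groups still did not overlap.

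All 12 tested large subunit assembly genes fell, where 34.8% of all tested genes did. MRTO4 (which in yeast holds the place of a stalk protein on the precursor; ENSG00000053372, chromosome 1, 19251539 to 19260128) had the largest fall of the 45. It had 8.85, 5.87 and 8.12 FPKM with dacomitinib and 22.4, 24.1 and 24.3 FPKM in control, a log2 difference of -1.53 (SE 0.13, adjusted p = 0.000105). Of all 13748 tested genes, 2.64% had a lower difference than MRTO4. BOP1 (ENSG00000261236, chromosome 8, 144262102 to 144291370) had 8.24, 8.76 and 9.68 FPKM with dacomitinib and 25.8, 23.6 and 28.1 FPKM in control, a log2 difference of -1.44 (SE 0.082, adjusted p = 1.81e-05).

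BOP1 forms the PeBoW complex with PES1 and WDR12, which is needed to process the precursor of the large subunit RNAs. Its partners fell as well. PES1 had 11.4, 9.55 and 11.4 FPKM with dacomitinib and 16.0, 15.2 and 19.2 FPKM in control (log2 difference -0.60, SE 0.10, adjusted p = 0.00248). WDR12 had 4.59, 3.69 and 4.05 FPKM with dacomitinib and 7.26, 7.39 and 7.37 FPKM in control (log2 difference -0.71, SE 0.075, adjusted p = 0.000253). The ratio of PES1 to BOP1 within libraries was 1.22 ± 0.148 with dacomitinib and 0.650 ± 0.0313 in control, and that of WDR12 to BOP1 was 0.465 ± 0.0791 with dacomitinib and 0.286 ± 0.0259 in control (SD, n = 3 each). Neither pair of ranges overlapped.

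RRS1, a factor that helps to load RNA and proteins onto the large subunit precursor, fell by 1.35 on the log2 scale (SE 0.12, adjusted p = 0.000106), to 7.199 ± 1.16 FPKM with dacomitinib, against 19.8 ± 1.98 FPKM in control. GNL3 (nucleostemin, a GTP-binding nucleolar protein) had the highest FPKM of the role averaged over all 6 libraries, though BOP1 and MRTO4 had higher control means. GNL3 had 16.3, 13.7 and 14.1 FPKM with dacomitinib and 23.4, 21.8 and 22.8 FPKM in control, and fell by 0.60 (SE 0.071, adjusted p = 0.000426). RRP1 had the smallest tested fall of the role on the log2(FPKM + 1) scale, 0.52 (SE 0.11, adjusted p = 0.00673), with 3.19, 2.95 and 2.97 FPKM with dacomitinib and 5.70, 3.98 and 4.83 FPKM in control. As a share of control, RRP1 stood at 62.8%, below DDX18 at 65.2%, GNL3 at 64.8% and PES1 at 64.0%. The call of RRP1 ended with TPM (adjusted p = 0.0683). BRIX1, NIP7, NOP16, RRP1B and DDX18 stood at 45.5% to 65.2% of control.

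NOP2 and PPAN were below the expression limit and were not tested. NOP2, a ribosomal RNA methyltransferase (ENSG00000111641, chromosome 12, 6556863 to 6568691), had 0.191, 0.373 and 0.294 FPKM with dacomitinib and 0.316, 0.111 and 0.247 FPKM in control. PPAN (ENSG00000130810, chromosome 19, 10106289 to 10111634) had 0.555, 0.793 and 1.201 FPKM with dacomitinib and 1.12, 0.678 and 1.37 FPKM in control. Their groups overlapped. They are also the only genes of the 45 that share over 50% of their exonic bases with another annotated gene on the same strand. NOP2 shares 54.4% with AC006064.6 and PPAN shares 56.0% with the readthrough gene PPAN-P2RY11. Both of these partners are listed at 0 in all 6 libraries. Among nuclear protein-coding genes, 88.4% of the 1133 with over 50% of exonic bases shared with another gene had a mean under 1 FPKM, and 44.3% of the other 18805. How fragments on shared exons were counted is not given in the sources used here, so the levels of NOP2 and PPAN are uncertain and say nothing of a change. Of the other genes, 21 share no exonic base with another gene, and all 21 fell, where 34.8% of all tested genes did.

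**Figure D3:**
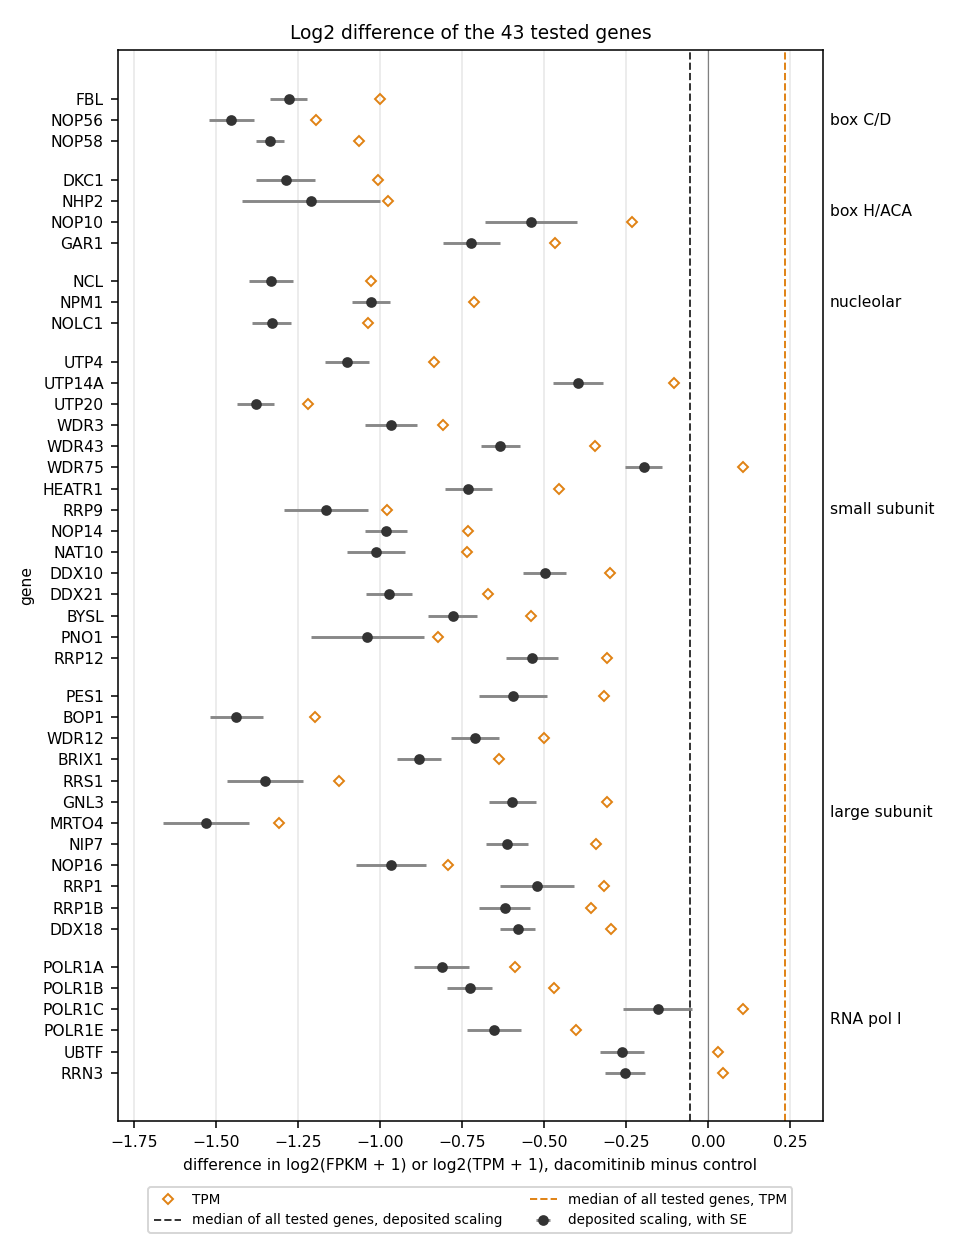
Difference in log2(FPKM + 1) with SE (filled circles) and in log2(TPM + 1) (open diamonds), dacomitinib minus control, for the 43 tested genes by role; dashed lines give the median of all tested genes on each scale. With the deposited scaling all 43 lie below the median of all genes (-0.06), and with TPM the 4 genes above 0 are WDR75, POLR1C, UBTF and RRN3.

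Of the 6 RNA polymerase I genes, 5 fell, where 34.8% of all tested genes did. With TPM 3 of the 6 fell, where 19.8% of all tested genes did. With quantile normalization and with a scaling to nuclear protein-coding genes 3 also fell, where 28.6% and 25.6% did. Their median log2 difference with the deposited scaling was -0.46, against -0.97 for the small subunit genes and -0.67 for the large subunit genes. The difference between roles was not tested. POLR1A, the largest subunit with the catalytic site (ENSG00000068654, chromosome 2, 86020216 to 86106155), had 5.28, 5.30 and 4.75 FPKM with dacomitinib and 9.38, 8.93 and 10.9 FPKM in control. It fell by 0.81 (SE 0.084, adjusted p = 0.000231). POLR1B, the second-largest subunit, had 7.59, 8.13 and 7.82 FPKM with dacomitinib and 12.7, 13.3 and 15.0 FPKM in control, a fall of 0.73 (SE 0.069, adjusted p = 0.000167). POLR1E, a subunit specific to this polymerase, had 6.02, 6.67 and 6.75 FPKM with dacomitinib, against 11.1, 9.55 and 11.7 FPKM in control, and fell by 0.65 (SE 0.083, adjusted p = 0.000596).

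Of the factors that bring the polymerase to its promoter, UBTF and RRN3 are among the 45. UBTF, which binds ribosomal DNA and keeps it open, had 11.7, 10.9 and 10.1 FPKM with dacomitinib and 13.3, 12.6 and 14.1 FPKM in control. It fell by 0.26 (SE 0.067, adjusted p = 0.0128). RRN3, which makes the polymerase competent to initiate and is known to be regulated by ERK, had 11.9, 13.7 and 12.7 FPKM with dacomitinib and 15.0, 16.0 and 15.2 FPKM in control, a fall of 0.25 (SE 0.061, adjusted p = 0.0106). Both calls ended with TPM, where the differences were 0.03 (adjusted p = 0.742) for UBTF and 0.05 (adjusted p = 0.663) for RRN3, with quantile normalization (adjusted p = 0.367 for UBTF and 0.597 for RRN3) and with a scaling to nuclear protein-coding genes (adjusted p = 0.229 for UBTF and 0.387 for RRN3). RRN3 has 3 pseudogenes by name, which held fragments equal to 9.31% of its own with dacomitinib and 7.47% in control. Reads left unassigned do not enter these shares.

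POLR1C, a subunit shared with RNA polymerase III, was the tested gene that did not pass. It had 3.63, 3.14 and 2.63 FPKM with dacomitinib and 3.86, 3.49 and 3.39 FPKM in control, and its groups overlapped (log2 difference -0.15, SE 0.10, adjusted p = 0.244). It shares 18.2% of its exonic bases with genes on the opposite strand. Of the 45 genes, 9 share over 10 to 50% with genes on either strand, POLR1C among them. The others of these 9 all fell, NHP2 (27.4%) and NIP7 (20.2%) among them. Within libraries the ratio of UBTF to POLR1A was 2.14 ± 0.0775 with dacomitinib and 1.37 ± 0.0744 in control (SD, n = 3 each), and that of POLR1C to POLR1A was 0.611 ± 0.0688 with dacomitinib and 0.371 ± 0.0534 in control. The ratio of POLR1B to POLR1A, at 1.54 ± 0.104 with dacomitinib and 1.41 ± 0.0757 in control, overlapped between the groups.

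Another 14 subunits and factors of this polymerase were listed as other pathway genes. TCOF1, which also works in transcribing ribosomal DNA, is not among these 14. Of the 13 tested, 6 fell and 1 rose (5 fell and 4 rose with TPM), beside 34.8% of all tested genes that fell and 25.4% that rose. POLR1F (listed as TWISTNB), a stalk subunit, had 11.4, 11.9 and 11.6 FPKM with dacomitinib and 20.9, 20.7 and 22.4 FPKM in control, a fall of 0.82 (SE 0.047, adjusted p = 1.95e-05). TAF1A, a subunit of the promoter selectivity factor, fell by 0.69 (adjusted p = 0.00105), and the small common subunits POLR2L, POLR2E, POLR2K and POLR2H, found in all 3 nuclear polymerases, fell by 0.97 (adjusted p = 0.000168), 0.75 (adjusted p = 0.000636), 0.50 (adjusted p = 0.00225) and 0.38 (adjusted p = 0.00332). POLR1D, the partner of POLR1C that is also shared with RNA polymerase III, rose. POLR1D had 14.4, 12.7 and 13.3 FPKM with dacomitinib, against 10.1, 10.5 and 9.04 FPKM in control (log2 difference 0.42, SE 0.071, adjusted p = 0.00231; 0.75 with TPM). POLR1H (log2 difference -0.43), POLR2F (-0.25), TAF1B (-0.30), TAF1D (-0.14), TTF1 (-0.07) and TAF1C (0.17) did not pass. POLR1G, below the limit, averaged 0.513 ± 0.136 FPKM with dacomitinib and 1.43 ± 0.249 FPKM in control, and 45.1% of its exonic bases are shared with a gene on the opposite strand.

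**Figure D4:**
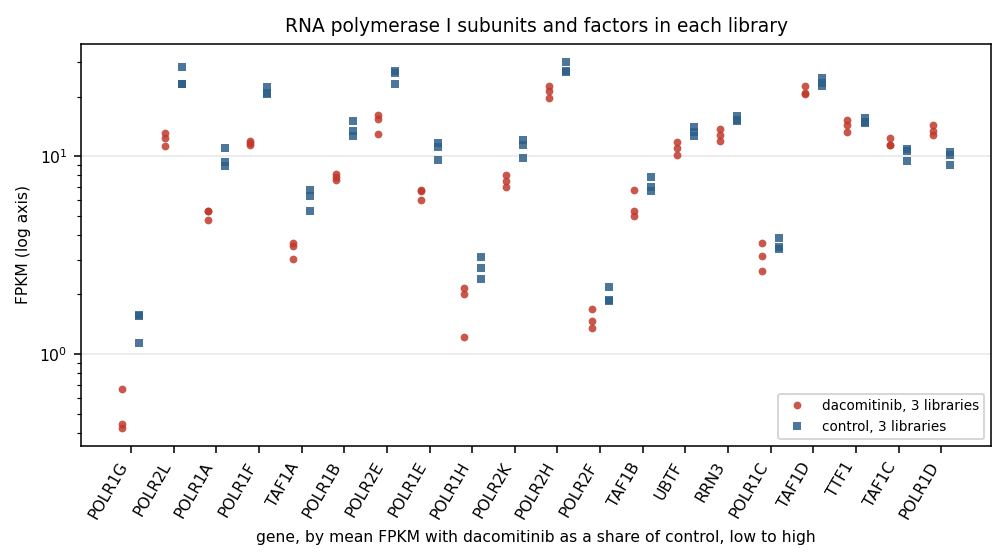
FPKM (log axis) of 20 RNA polymerase I subunits and factors in 3 dacomitinib libraries (circles, left of each pair) and 3 control libraries (squares, right), ordered by mean FPKM with dacomitinib as a share of control. POLR1D stands at the right end, with all circles above all squares.

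Beyond the 45, 130 other ribosome assembly genes were listed by role, and 127 were tested. Of these, 98 (77.2%) fell and 4 (3.15%) rose, where 34.8% of all tested genes fell and 25.4% rose. The median log2 difference was -0.54, and -0.28 with TPM. With TPM, 67 (52.8%) fell and 16 (12.6%) rose, where 19.8% of all tested genes fell and 42% rose. By role, 36 of 44 small subunit genes fell and 0 rose, 39 of 47 large subunit genes fell and 3 rose, and 17 of 23 exosome and other nuclease genes fell and 0 rose. TCOF1, treacle, which works with UBTF in transcribing ribosomal DNA, fell most. TCOF1 was counted with the small subunit genes and not with the RNA polymerase I factors. TCOF1 had 4.27, 4.08 and 4.32 FPKM with dacomitinib and 24.7, 21.3 and 28.5 FPKM in control, a log2 difference of -2.30 (SE 0.10, adjusted p = 6.39e-06). It fell further than any of the 43. URB2, a large subunit factor known from yeast, fell by 1.47 (adjusted p = 6.54e-05), POP7, a subunit of RNase MRP, by 1.43 (adjusted p = 5.89e-06), and LYAR, a nucleolar zinc finger protein, by 1.36 (adjusted p = 2.79e-05).

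The 4 that rose were POLR1D and 3 large subunit factors. NOP53, which recruits the exosome to the large subunit precursor, had 32.3, 27.1 and 30.5 FPKM with dacomitinib and 17.3, 17.0 and 17.1 FPKM in control, a log2 difference of 0.77 (SE 0.067, adjusted p = 0.000113). NSA2 rose by 0.28 (adjusted p = 0.00950), and 58.7% of its exonic bases are shared with other genes on either strand. RSL24D1, a placeholder on the large subunit, rose by 0.13 (adjusted p = 0.0403).

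Ribosomal proteins are what this machinery assembles with ribosomal RNA. Their 79 cytosolic genes had a median log2 difference of 0.04, against -0.06 for all tested genes. Some of the 79 share exons with other genes. RPS10 shares 39.4% of its exonic bases and averaged 1.47 FPKM, and RPL17 shares 35.3% and averaged 6.99 FPKM. Neither was called, and the part of shared exons in these counts was not tested. Of the 79, 7 (8.86%) fell and 10 (12.7%) rose, where 34.8% of all tested genes fell and 25.4% rose. With TPM their median was 0.35, against 0.23 for all tested genes. With TPM, 3 (3.80%) fell and 50 (63.3%) rose, where 19.8% of all tested genes fell and 42% rose. With the deposited scaling but without dacomitinib replicate 1, 17 fell and 8 rose, where 33.8% and 23.4% of all tested genes did. Without dacomitinib replicate 2, 4 fell and 26 rose, where 32.5% and 22.9% of all tested genes did. The share of fragments on the 79 genes was 4.94 ± 0.439% with dacomitinib and 4.17 ± 0.0982% in control (SD, n = 3 each). The difference between these lists was not tested. MYC had 43.7, 38.3 and 41.5 FPKM with dacomitinib and 64.8, 65.3 and 58.5 FPKM in control, a fall of 0.60 on the log2 scale (SE 0.067, adjusted p = 0.000326; -0.29 with TPM).

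**Figure D5:**
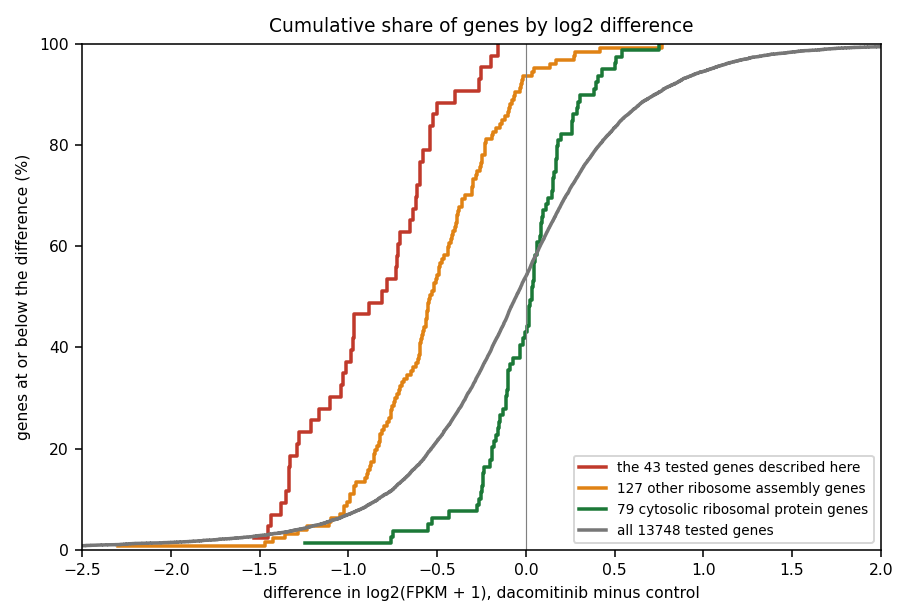
Cumulative percentage of genes at or below a given difference in log2(FPKM + 1), dacomitinib minus control, for the 43 tested genes, 127 other ribosome assembly genes, 79 ribosomal protein genes and all 13748 tested genes. The curves cross the 50% level at their medians of -0.81, -0.54, 0.04 and -0.06; the x axis is limited to -2.5 to 2.

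Introns of these genes also carry snoRNA genes, and many vertebrate snoRNAs are cut out of such introns. By position and strand, 8 of the 45 hold 26 annotated snoRNA genes: GNL3 holds 6, NOP56 5, NOP58 4, NCL 3, WDR43 3, DKC1 2, PPAN 2 and POLR1C 1. These rows held 128 fragments over the 3 dacomitinib libraries and 84 over the 3 control libraries, and 12 of the 26 had none. The difference was not tested.

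Among the libraries of a group the 43 genes moved together slightly. Control replicate 3 had the highest value of its group in 27 of the 43 genes and a median deviation from the group mean of 0.07 on the log2 scale, and control replicate 2 the lowest in 24, with a median deviation of -0.08. With dacomitinib the medians lay between -0.03 and 0.04. These shifts are small beside the median difference between groups of -0.81. They were computed for the 43 genes only, so a shift of a whole library would give the same pattern.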

How the data were processed

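RNA was measured in 3 dacomitinib and 3 control libraries of HaCaT cells. The authors deposited FPKM per gene, per the file headers with gene positions and lengths. The build was GRCh38 and the tools were HISAT2, featureCounts, fastp, CASAVA and DESeq2 1.20.0, per the submitters' processing notes, which give no order. All 58735 gene lengths equal the merged exons of GENCODE release 29. Whether counting used strand is not given in the sources used here, so reads of overlapping genes cannot be told apart.

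FPKM times length gave whole fragments for 100% of values in every library (tolerance 0.01). Genes were tested on log2(FPKM + 1) by limma 3.58.1 (R 4.3.3, eBayes with trend), a scale that understates changes of weakly expressed genes. The mean had to be at least 1 FPKM. P-values were Benjamini-Hochberg adjusted over all tested genes, two-sided, with a threshold of 0.05. As an alternative, limma-voom on the recovered fragments, scaled by trimmed means of M values (TMM), called 8592 genes, against 8271. The procedure was also run on simulated fragments with few changed genes, balanced in direction, and with each library scaled by its own sum. These settings differ from the data, so that run does not bear on the calls made here. Exon overlaps were found with bedtools 2.31.1.

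All 45 genes are named. Every library's value is given for the largest changes, the most abundant gene and the smallest change of each role, and for all RNA polymerase I genes. Of the other assembly genes, the 4 largest falls and rises and the RNA polymerase I genes are named. PES1, WDR12 and PNO1 are given per library, and UTP4, HEATR1, RRS1 and NAT10 by group, after their values were seen. The genes and lists were chosen with earlier results of these data known. Replicate numbers did not pair libraries. The same-numbered libraries' deviations correlated at -0.02 to 0.04 across genes.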

Additional observations from a re-analysis of the deposited data

How the results depend on the processing

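The fall of most of the 43 tested genes held under every setting tried, with 36 to 42 called lower and 0 higher, or 40 of 40 at a mean of at least 5 FPKM, where 47.3% of genes fell. The size depended on the scale. The median log2 difference, -0.81 as reported, was -0.92 with a pseudocount of 0.1, -0.58 with a pseudocount of 5, -0.92 at a mean of at least 5 FPKM, -0.59 with TPM, -0.69 with quantile normalization and -0.66 scaled to nuclear protein-coding genes. Without 1 library, 41 or 42 were lower. WDR75 was the gene whose call ended when a library was left out and with voom (adjusted p = 0.0899). Differences turned positive with TPM for WDR75 (0.11), POLR1C (0.11), RRN3 (0.045) and UBTF (0.030), and with quantile normalization for WDR75 (0.0079). None of these passed, and the scaling moves all genes together. Over all genes, higher calls were 1946 at a mean of at least 5 FPKM, which tests fewer genes, and 5779 with TPM, against 3493 as reported. Lower calls were 2721 with TPM, against 4778. Other assembly genes rising were 16 with TPM and 7 with quantile normalization, against 4. Of all tested genes, 42% rose with TPM and 30.4% with quantile normalization, against 25.4%. Median ratio scaling gave the same calls among the 43 as the deposited one. Over all genes it also gave the same counts, 4778 lower and 3493 higher. The 2 scalings thus hardly differ, and this setting is no separate check. With the replicate number as a block, 7883 genes were called over all genes, against 8271, and 42 of the 43 were lower, so it changed no call among them. NOP2 and PPAN were too low to test, and how fragments on their shared exons were counted is not given in the sources used here.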
